A study of Homo sapiens with 26 samples.

Results

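The unlabeled control libraries of the cell lines that carry an inside APEX2 construct were compared with those of the lines that carry an outside one. Among 26 libraries of the series, 13 were controls, chosen by their titles alone: 7 inside controls (4 Lyn11-Control and 3 Lck-Control) and 6 outside controls (3 CD28-Control and 3 PDGFR-Control). All came from HEK293T, a line derived from human embryonic kidney, stably expressing an APEX2 fusion. APEX2 is an engineered peroxidase that biotinylates molecules close to it, and the design text places the Lyn11 and Lck constructs inside and the CD28 and PDGFR constructs outside. The labels list the same biotin-phenol incubation (30 min), hydrogen peroxide step (1 mM, 1 min) and streptavidin enrichment for control and labeled samples. Which step the controls lacked, whether a line is 1 clone, and whether libraries kept strand are not given in the sources used here. Of 25745 genes, 21235 had a log2 FPKM value (fragments per kilobase of gene, scaled to library size, the deposited unit) above 0 in at least 3 of the 13 libraries and were tested.

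Lyn and Lck are Src-family kinases held to the inner leaflet of the plasma membrane by lipids, and short sequences from their amino termini carry a fused protein there. CD28 and the PDGF receptors span the membrane, and their sequences display a fused protein on the cell surface. Unlabeled controls of such lines give the RNA recovered without labeling, and the labeled libraries of each line are read against them.

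Each side consists of 2 lines, and depth splits the same way. Recovered reads were 19.82 to 34.83 M (1e6) in inside controls and 11.34 to 16.26 M in outside controls, with no overlap. Side, cell line and depth therefore cannot be told apart, and every p-value below measures the spread between libraries of these 4 lines. With the 4 line means as the samples, limma called 0 genes, against 3133 with an unadjusted p under 0.05. Of 25745 genes, 75 to 239 were at 0 reads in inside controls and 226 to 3031 in outside controls. PDGFR-Control-2 stood apart, with 3031 genes at 0 reads and 175 on the first principal component, where the other 12 libraries lay between -26.9 and 23.5. CD28-Control-2, with 1541 genes at 0 reads, was the next from the rest on that component.

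**Figure D1:**
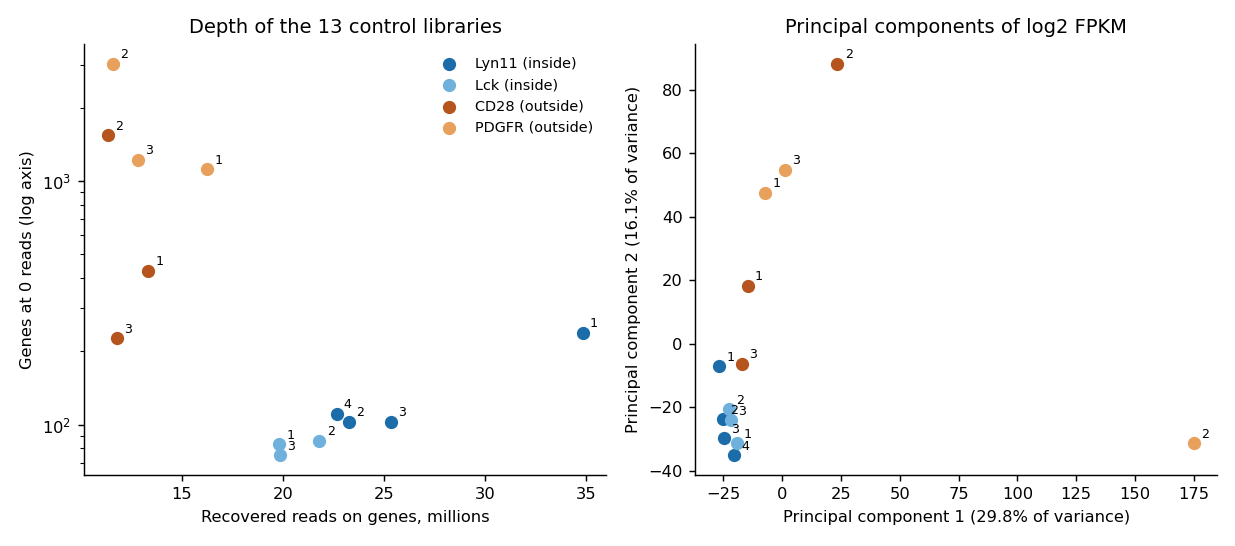
Left, recovered reads in M (1e6) against the number of genes at 0 reads (log axis), 1 point per control library. Right, the first 2 principal components of the 21235 tested genes. The 7 inside controls lie close together at 19.82 M reads or more, and the 6 outside controls are shallower and spread apart, with PDGFR-Control-2 at 175 on the first component.

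Log2 values of libraries of 1 line correlated across genes at Pearson 0.904 to 0.964 for Lyn11, 0.955 to 0.966 for Lck, 0.837 to 0.913 for CD28 and 0.729 to 0.827 for PDGFR. Lyn11 with Lck libraries gave 0.902 to 0.966, CD28 with PDGFR 0.741 to 0.871, and inside with outside 0.743 to 0.934. Pairs across the inside lines thus covered about the range of pairs within them, and pairs within PDGFR reached lower than any pair across the sides. Genes are not independent replicates, and these values are descriptions.

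The gene of the CD28 construct checked that label. CD28 encodes a co-stimulatory receptor of T cells. It had 2690, 1857 and 3450 reads in the 3 CD28 controls, 1 read in Lyn11-Control-4 and 0 reads in each of the other 9 libraries. LYN did not separate the sides (0.08 ± 0.10 log2 units, adjusted p = 0.672). PDGFRA and PDGFRB fell below the filter and were not tested. PDGFRB had 51, 9 and 58 reads in PDGFR-Control-1, 2 and 3 (-1.28, -3.33 and -0.80 log2 FPKM), 11 to 38 reads in inside controls (-3.65 to -2.08) and 6 to 12 reads in CD28 controls (-3.73 to -2.95). PDGFR-Control-2, the library that stands apart, thus lay within the ranges of both the CD28 and the inside controls for this gene, on 9 reads. PDGFR-Control-1 and PDGFR-Control-3 lay above every other library. Of the HEK293 identity list, 4 of 15 tested genes were higher inside, where 7.01% of all genes were, the intermediate filament gene VIM (0.60) and the cadherin gene CDH2 (0.57) among them, and 0 were lower. The list's median difference was 0.04, against 0.05 over all genes, and 9 of the 15 differences were positive. In labeled libraries 1 of the 15 was called higher and 0 lower. The list's summed level was 208 to 273 FPKM in inside controls and 153 to 211 FPKM in outside controls. Among markers of blood (4 tested of 20), fibroblasts (5 of 15) and carcinoma (3 of 15), 0 were called by limma, against 1, 1 and 0 at an unadjusted p under 0.05 and 0, 1 and 0 by limma voom.

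Differences are inside minus outside in log2 FPKM, taken between the averages of the line means, with the standard error after ±. Calls rest on limma across all 21235 genes with Benjamini-Hochberg adjustment at 0.05, the method behind every adjusted p given for a gene. Of the genes tested, 2312 (10.9%) were called, 1489 (7.01%) higher and 823 (3.88%) lower inside. A stricter group of 841 genes (3.96%) was called, had no overlap between the 7 inside and the 6 outside libraries, and differed by more than Lyn11 from Lck and CD28 from PDGFR. It held 609 higher (2.87%) and 232 lower (1.09%) genes. The median difference of all tested genes was 0.05. The count of 2312 depended on single libraries: it was 1022, 1360 and 1085 without Lck-Control 1, 2 and 3, 1178 without Lyn11-Control 3 and 1494 without CD28-Control 2. Scaling to total reads in place of the authors' scaling gave 782 higher and 1488 lower genes. Leaving out CD28-Control-2 and PDGFR-Control-2 together gave 1174 higher and 668 lower genes.

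The 6 comparisons between pairs of lines share libraries, so their counts stand side by side only. Lyn11 differed from PDGFR in 2797 genes (13.2%), 1862 higher (8.77%) and 935 lower (4.4%). Lck differed from PDGFR in 446 genes (2.1%), 336 higher (1.58%) and 110 lower (0.518%). Differences from CD28 were fewer, 263 genes (1.24%) for Lyn11, 168 higher (0.791%) and 95 lower (0.447%), and 30 (0.141%) for Lck, 18 higher (0.0848%) and 12 lower (0.0565%). Within a side, Lyn11 and Lck differed in 0 genes (0.0%) by limma, with 1189 at an unadjusted p under 0.05, and CD28 and PDGFR in 25 (0.118%), 22 higher (0.104%) and 3 lower (0.0141%) in CD28.

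The labeled libraries of the same lines did not enter the filter or the control test, but they share the lines and the depth split. The gene lists described below were chosen with earlier results of these data known. In labeled libraries the inside minus outside difference was called for 808 genes (3.81%), 295 higher (1.39%) and 513 lower (2.42%). Of the 1489 genes higher in inside controls, 1436 (96.4%) were also positive in labeled libraries, and of the 823 lower, 687 (83.5%) were also negative. Over all 21235 genes, 70.3% had the same sign in both. The genes called in both with the same sign numbered 300, which is 13% of the control calls and 37.1% of the labeled calls. The labeled difference departed from the control difference beyond the spread for 1 of 21235 genes (0.00471%), the U6 pseudogene RNU6-1176P, with 2.99 in labeled and -0.04 in control libraries (adjusted p = 0.0191). No gene list described below held a gene called in that test.

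Most listed genes of the integrated stress response were higher in inside controls. In this pathway, kinases that sense amino acid shortage, unfolded protein, haem shortage or viral RNA phosphorylate the initiation factor eIF2, general translation slows, and the transcription factor ATF4 is made and switches on genes of amino acid synthesis, amino acid transport and tRNA charging. Of 30 listed genes, all tested, 24 were called higher and 0 lower, where 7.01% of all tested genes were called higher, and 16 belonged to the stricter group. The list's median difference was 0.66, against 0.05 over all genes, and 29 of 30 differences were positive. In labeled libraries 15 of the 30 were called higher and 0 lower, with a median of 0.40. Under 28 alternatives of scaling, filter, spread model and libraries used, 17 to 28 genes of the list were called higher and 0 lower. These 28 alternatives leave out the 4 line means as samples, where limma called 0 genes in all. The 17 came without CD28-Control-2 and PDGFR-Control-2. At equal depth of 11.34 M reads in every library it was 23, with a median of 0.67.

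Among the regulators, ATF4 itself was at 8.56, 8.35, 8.42 and 7.97 log2 FPKM in Lyn11 controls and 7.87, 7.92 and 7.96 in Lck controls, against 7.55, 6.75 and 7.36 in CD28 controls and 7.48, 6.47 and 7.13 in PDGFR controls. All inside libraries lay above all outside ones, with a difference of 1.00 ± 0.18 (adjusted p = 0.00806). DDIT3, the transcription factor CHOP, was at 2.77, 3.36, 3.48 and 3.24 in Lyn11 and 3.24, 3.36 and 3.46 in Lck controls, against 1.95, 2.17 and 2.35 in CD28 and 2.19, 2.40 and 2.06 in PDGFR controls. The difference was 1.10 ± 0.13 (adjusted p = 0.00148), again without overlap. CEBPG, which dimerizes with ATF4, was higher by 0.75, SESN2, which encodes the leucine sensor sestrin 2, by 0.68, and TRIB3, a pseudokinase induced by ATF4, by 0.64. ATF5, whose mRNA is translated under the same control as ATF4, had 0.37 and CEBPB 0.34, and neither was called. The positive sign of ATF5 rests on PDGFR-Control-2, at -3.1. The other outside controls were at 0.29 to 0.73 and the inside controls at -0.05 to 1.06.

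NUPR1, a small chromatin protein induced by stress, showed the largest difference on the list, 2.18 ± 0.25 (adjusted p = 0.00148). Its values were -0.10, 1.00, 1.33 and 1.14 in Lyn11 and 1.28, 1.22 and 1.21 in Lck controls, against -1.26, -1.30 and -1.63 in CD28 and -1.03, -0.70 and -0.90 in PDGFR controls. Lyn11-Control-1 was the lowest inside library and the only one below 0, yet above every outside library. CHAC1, an enzyme that degrades glutathione, was at 4.07, 4.07, 4.43 and 3.94 in Lyn11 and 3.71, 3.87 and 4.01 in Lck controls, against 1.41, 1.66 and 1.49 in CD28 and 3.08, 1.18 and 3.17 in PDGFR controls. The PDGFR libraries were split, PDGFR-Control-2 being with the CD28 libraries and the other two between these and the inside libraries. The difference was 2.0 ± 0.28 (adjusted p = 0.00278), a 3.99-fold ratio, and 1.5 in labeled libraries (adjusted p = 0.00944).

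**Figure D2:**
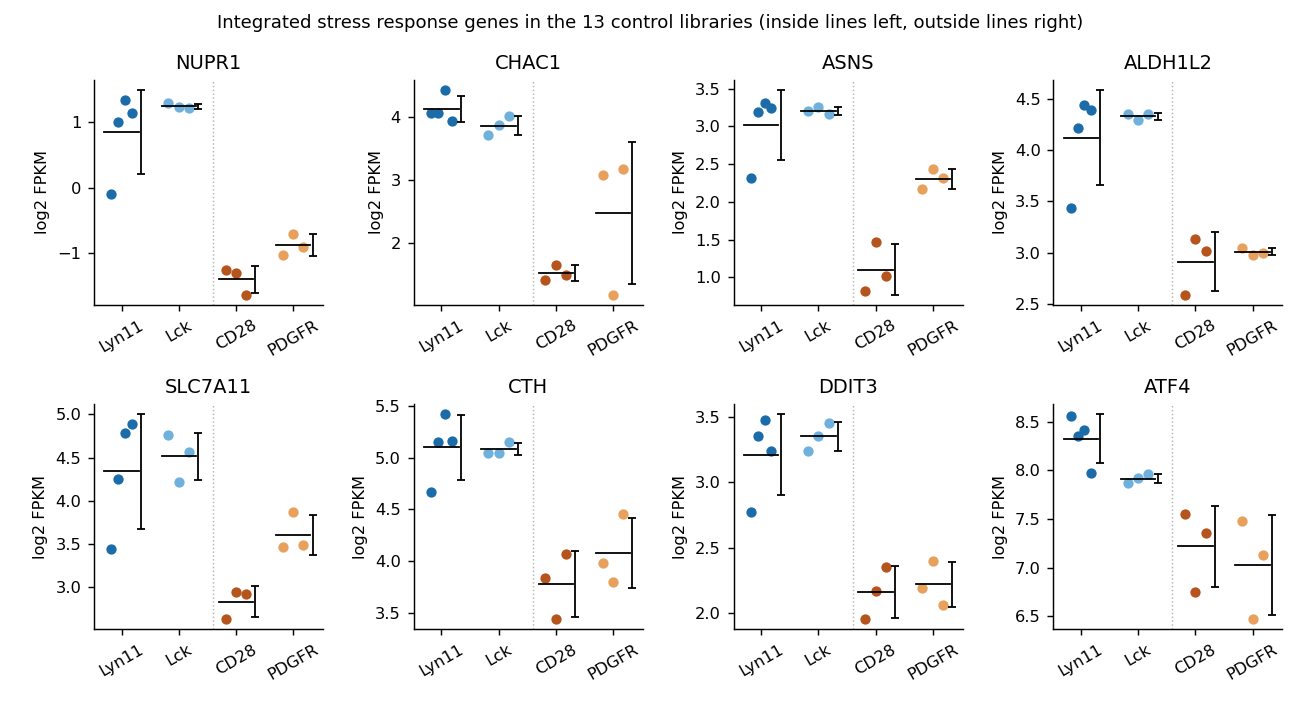
Log2 FPKM of 8 integrated stress response genes in each control library, by line (Lyn11 and Lck left, CD28 and PDGFR right); the line is the mean and the bar the SD. ATF4, DDIT3, NUPR1, CHAC1, ALDH1L2 and CTH show no overlap between sides, while ASNS and SLC7A11 overlap through Lyn11-Control-1, at 2.32 and 3.44.

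Enzymes of amino acid and one-carbon metabolism followed. ASNS, asparagine synthetase, was at 2.32, 3.19, 3.31 and 3.24 in Lyn11 and 3.20, 3.26 and 3.16 in Lck controls, against 0.82, 1.47 and 1.02 in CD28 and 2.17, 2.44 and 2.31 in PDGFR controls. CD28 was the lowest line, and Lyn11-Control-1 was below PDGFR-Control-2, so the sides overlapped (1.41 ± 0.17, adjusted p = 0.00177). ALDH1L2, the mitochondrial enzyme that oxidizes formyl tetrahydrofolate, was at 3.44 to 4.44 (median 4.35) in inside controls and 2.59 to 3.13 (median 3.01) in outside controls, a difference of 1.26 ± 0.16 (adjusted p = 0.00182). CTH, which makes cysteine from cystathionine, was at 4.67 to 5.42 (median 5.15) inside and 3.44 to 4.46 (median 3.91) outside (1.16 ± 0.15, adjusted p = 0.00199). Neither gene overlapped between sides. PCK2, the mitochondrial PEP carboxykinase, was higher by 1.14, PSAT1 and PSPH of serine synthesis by 0.92 and 0.47, and MTHFD2 and SHMT2 of mitochondrial folate metabolism by 0.91 and 0.53. PHGDH, the first enzyme of serine synthesis, missed the threshold at 0.44 ± 0.13 (adjusted p = 0.0567), and CBS, which makes cystathionine, was at -0.04.

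Of the amino acid transporters, SLC7A11, the cystine importer, was at 3.44 to 4.89 (median 4.57) in inside controls and 2.63 to 3.87 (median 3.20) in outside controls, a difference of 1.21 ± 0.22 (adjusted p = 0.00785) with overlap. SLC7A1, which carries arginine and lysine, was higher by 0.38. SLC7A5 (0.26) and its partner SLC3A2 (0.16), which together import leucine, were not called. All 5 listed tRNA synthetases were higher: GARS1 for glycine by 0.77, SARS1 for serine by 0.63, TARS1 for threonine by 0.48, AARS1 for alanine by 0.35 and WARS1 for tryptophan by 0.30. VLDLR, a lipoprotein receptor, was higher by 1.16 ± 0.15 (adjusted p = 0.00182). The pattern by line varied: relative to CD28 and to PDGFR, Lyn11 was higher by 1.91 and 0.71 for ASNS, 2.60 and 1.65 for CHAC1, and 1.08 and 1.29 for VLDLR, with Lck at 2.1 and 0.90, 2.34 and 1.39, and 1.03 and 1.24.

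ATF4 with a C/EBP partner binds an element whose core reads TGATGNAA, and promoters of the listed genes were searched for these letters on both strands in RefSeq windows (GRCh38.p14) from 250 bases before to 50 after the transcription start. A match was present in 3.62% of all 35116 windows and in 8 of 41 windows (19.5%) of the stress response genes. The 41 windows belong to 24 genes, 8 of which held a match (CHAC1, ASNS, CEBPG, GARS1, AARS1, TARS1, SLC7A1 and SLC3A2). PSPH, SHMT2, SLC7A11, ALDH1L2, NUPR1 and GPT2 had no window and were not searched. The 4 genes with a match and the largest control differences are shown, with the match in capitals. They lie at chr15:40953221-40953520 (CHAC1, plus strand), chr7:97872359-97872658 (ASNS, minus), chr7:30594628-30594927 (GARS1, plus) and chr19:33373863-33374162 (CEBPG, plus):
CHAC1: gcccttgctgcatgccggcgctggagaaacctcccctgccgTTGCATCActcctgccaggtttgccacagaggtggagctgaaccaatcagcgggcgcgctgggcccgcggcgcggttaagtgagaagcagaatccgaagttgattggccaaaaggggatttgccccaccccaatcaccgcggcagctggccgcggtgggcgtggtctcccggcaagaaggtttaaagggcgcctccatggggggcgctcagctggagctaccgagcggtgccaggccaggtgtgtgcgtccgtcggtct
ASNS: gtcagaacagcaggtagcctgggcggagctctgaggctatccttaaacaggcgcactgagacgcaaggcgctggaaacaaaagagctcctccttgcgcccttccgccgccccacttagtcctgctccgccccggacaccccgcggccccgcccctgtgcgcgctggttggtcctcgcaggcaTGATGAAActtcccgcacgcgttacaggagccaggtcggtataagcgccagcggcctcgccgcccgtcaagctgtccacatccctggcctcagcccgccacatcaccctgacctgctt
GARS1: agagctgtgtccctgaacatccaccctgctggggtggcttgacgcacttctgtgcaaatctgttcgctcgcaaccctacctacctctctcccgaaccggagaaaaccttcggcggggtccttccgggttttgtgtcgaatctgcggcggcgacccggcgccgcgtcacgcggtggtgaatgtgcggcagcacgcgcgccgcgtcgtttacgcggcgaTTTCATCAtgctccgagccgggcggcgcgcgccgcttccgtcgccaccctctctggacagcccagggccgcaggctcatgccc
CEBPG: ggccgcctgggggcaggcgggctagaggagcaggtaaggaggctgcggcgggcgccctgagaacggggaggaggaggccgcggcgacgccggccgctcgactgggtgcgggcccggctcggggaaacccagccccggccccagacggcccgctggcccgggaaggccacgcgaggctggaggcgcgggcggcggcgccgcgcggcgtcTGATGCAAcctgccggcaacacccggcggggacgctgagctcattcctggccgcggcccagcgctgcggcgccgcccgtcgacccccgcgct
In ASNS and CEBPG the core reads on the gene's own strand, and in CHAC1 and GARS1 on the opposite strand. SLC3A2, which holds a match, was not called, and the windows of ATF4 and DDIT3, which were, hold none. A match is a description of letters, and its absence says only that they are not in this window.

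Among noncoding genes with a symbol in the stricter group and a mean log2 of at least 1, MIR5692C2 had the largest positive difference. It lies near ASNS. MIR5692C2 (chromosome 7, hg38 position 97964405 to 97964481, minus strand) had 35, 29, 16 and 27 reads in Lyn11 and 15, 21 and 11 in Lck controls, against 0, 0 and 3 in CD28 and 0, 0 and 2 in PDGFR controls. The sides did not overlap, but with 4 outside libraries at 0 reads the fitted 3.37 ± 0.45 (adjusted p = 0.00233) depends on the prior count and is no fold. The gene lies 91863 bases from ASNS on the same strand, within an annotated transcript, AC079781.5, that also covers ASNS, so its reads and those of that transcript cannot be told apart. MIR4737 had 33, 25, 22 and 17 reads in Lyn11 and 13, 32 and 17 in Lck controls, against 6, 0 and 5 in CD28 and 10, 3 and 2 in PDGFR controls (1.84 ± 0.50, adjusted p = 0.0375). MIR4737 kept its call in only 15 of 28 alternatives. MIR4525, within RAB40B, ran the other way, with 3, 1, 2 and 3 reads in Lyn11 and 2, 1 and 3 in Lck controls, against 6, 13 and 3 in CD28 and 5, 16 and 5 in PDGFR controls (-1.99 ± 0.37, adjusted p = 0.00918). RefSeq gives their mature sequences, shown with the seed (bases 2 to 8) in capitals. They come from chr7:97964408-97964429, chr17:60043077-60043096 and chr17:82668281-82668301 of GRCh38.p14, all on the minus strand:
hsa-miR-5692c: aAUAAUAUcacaguagguguac
hsa-miR-4737: aUGCGAGGaugcugacagug
hsa-miR-4525: gGGGGGAUgugcaugcugguu
The 3 seeds differ from each other.

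Ribosomal protein mRNAs took a larger share of the reads in inside controls, and 33 of 83 were called higher. These mRNAs start with a run of pyrimidines at the 5′ end, through which their translation is tied to growth signals. Of 83 tested genes of the cytosolic ribosome, 33 were higher and 2 lower, and 15 were in the stricter group, where the shares over all genes were 7.01% higher, 3.88% lower and 3.96% stricter. The median difference was 0.45, against 0.05 over all genes. In labeled libraries 0 of 83 were called by limma, with 19 at an unadjusted p under 0.05 and a median of 0.06. The test of the change between control and labeled libraries called 0 of 83, with 16 at an unadjusted p under 0.05. Without Lck-Control 1, 2 and 3 the count of 33 was 14, 18 and 17. Calls over all genes fell likewise, from 2312 to 1022, 1360 and 1085. Without CD28-Control-2 and PDGFR-Control-2 the ribosomal protein count was 26, at equal depth 31, and under the 28 alternatives it was 14 to 51.

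Of the large subunit, RPL39 was at 8.45 to 8.94 log2 FPKM (median 8.64) in inside controls and 6.08 to 8.59 (median 7.10) in outside controls, a difference of 1.44 ± 0.30 (adjusted p = 0.0132) with overlap. RPL41 was at 7.52 to 8.62 (median 8.13) inside and 5.75 to 7.43 (median 6.92) outside, without overlap (1.42 ± 0.32, adjusted p = 0.0181), and missed the threshold without Lck-Control 1. RPL21 was higher by 1.20, RPL23A by 1.18 and RPL13A by 1.01. Of the small subunit, RPS12 was higher by 1.17 and missed the threshold without Lck-Control 1, and RPS27 was higher by 1.03. RPS9 (-0.72 ± 0.21, adjusted p = 0.0448) and RPL26 (-0.36 ± 0.10, adjusted p = 0.0397) were lower and kept their calls in only 9 of 28 and 14 of 29 alternatives. Several of these genes have near-identical processed copies whose reads can be shared, and RPL21P16 (2.20) and RPL13AP5 (1.20) were higher alongside them, as was EIF4BP3 (1.30), a copy of the initiation factor gene EIF4B. As a share of reads, ribosomal protein mRNAs took 4.52% ± 0.341 in inside controls (4.17 to 4.96) and 3.28% ± 0.701 in outside controls (2.34 to 4.11, SD, n = 7 and 6), without overlap (exact permutation test, adjusted p = 0.00272 over 14 RNA classes).

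To show the starts of these mRNAs, the 30 bases around the RefSeq start are given for the 3 genes with the largest positive and the 2 with a negative difference, with runs of at least 5 pyrimidines in capitals. They lie at chrX:119791616-119791645 (RPL39, minus strand), chr12:56116618-56116647 (RPL41, plus), chr13:27251543-27251572 (RPL21, plus), chr19:54200843-54200872 (RPS9, plus) and chr17:8383179-8383208 (RPL26, minus) of GRCh38.p14:
RPL39: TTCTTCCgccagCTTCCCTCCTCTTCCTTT
RPL41: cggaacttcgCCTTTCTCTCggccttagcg
RPL21: cggccccgCCTCTTTCCTTTCggccggaac
RPS9: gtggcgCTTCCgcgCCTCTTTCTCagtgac
RPL26: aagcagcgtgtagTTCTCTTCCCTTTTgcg
A run was present on the gene's strand in 49.6% of all 35116 start windows, in 76 of 82 windows (92.7%) of the ribosomal protein genes and in 30 of 32 windows (93.8%) of those higher inside. The pair of genes with a negative difference carried the run as well.

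Of 34 tested translation factors, 15 were called higher and 0 lower, where 7.01% of all tested genes were higher. The median was 0.22, against 0.05 over all genes, and 23 of the 34 differences were positive. EIF3L, a subunit of initiation factor eIF3, was at 5.36 to 5.79 (median 5.48) in inside controls and 3.68 to 5.15 (median 4.59) in outside controls (0.99 ± 0.15, adjusted p = 0.00428). EIF1, which takes part in start codon selection, was higher by 0.94, EEF1A1, the factor that brings tRNA to the ribosome, by 0.93, and PABPC1, which binds poly(A) tails, by 0.84. None of the 4 overlapped between sides. Scaling to total reads gave 10 higher and 1 lower, and higher calls over all genes also fell under it. In labeled libraries 2 of the 34 were called higher and 4 lower.

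**Figure D3:**
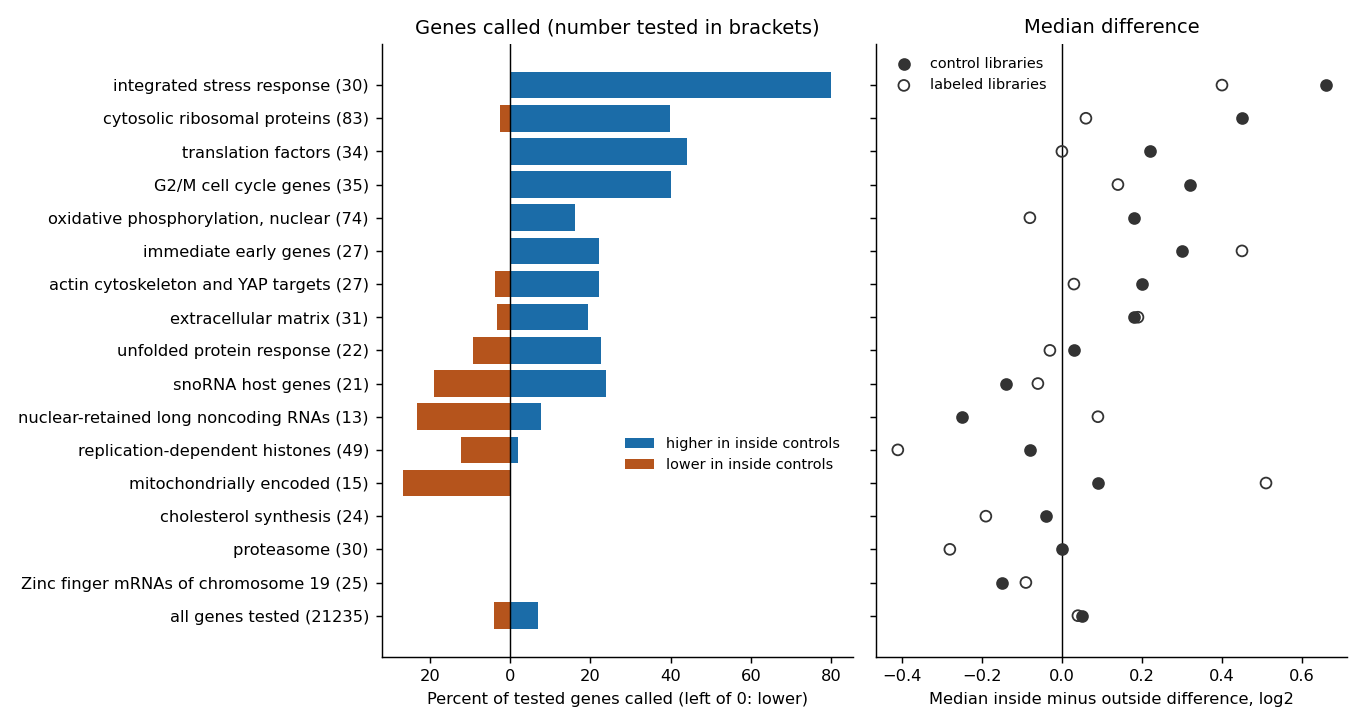
Percent of tested genes called higher and lower in inside against outside controls, by gene list, and the median difference of each list in control (filled) and labeled (open) libraries. The integrated stress response has 24 of 30 genes higher and a median of 0.66 in control and 0.40 in labeled libraries; ribosomal proteins have a median of 0.45 in control and 0.06 in labeled libraries.

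Of 35 tested G2/M genes, 14 were called higher and 0 lower, where 7.01% of all tested genes were higher. The median difference was 0.32 in control and 0.14 in labeled libraries, against 0.05 and 0.04 over all genes. PTTG1, securin, was at 5.17 to 5.55 (median 5.34) in inside controls and 3.71 to 5.34 (median 4.39) in outside controls (0.95 ± 0.16, adjusted p = 0.00649). CKS1B, a partner of cyclin-dependent kinases, was higher by 0.86, the centrosome kinase NEK2 by 0.64, and TOP2A, topoisomerase II, and the spindle protein PRC1 by 0.59 each. The median GC content of this list was 43.2%, that of the bin of GC content with the most genes called higher, and with GC bins centred in each library 23 of the 35 were called higher. Scaling to total reads gave 8, and leaving out CD28-Control-2 and PDGFR-Control-2 gave 12. Higher calls over all genes moved the same way. They rose from 1489 to 3733 with GC bins centred, and fell under total reads and with these libraries left out. Of 30 G1/S genes 5 were higher and 1 lower, and of 74 nuclear genes of oxidative phosphorylation 12 were higher and 0 lower, against the same 7.01%.

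Immediate early genes, which are transcribed within minutes of a stimulus, had 6 of 27 tested genes higher and 0 lower in controls, where 7.01% of all genes were higher, with a median of 0.30. Without CD28-Control-2 and PDGFR-Control-2 the count was 6, DUSP1 not among them, and the median was 0.10. In labeled libraries 11 of the 27 were higher and 0 lower, where 1.39% of all genes were higher, with a median of 0.45. CCN1, a secreted matricellular protein, was at 2.18 to 2.86 (median 2.51) in inside controls and 0.45 to 1.94 (median 1.61) in outside controls (1.06 ± 0.23, adjusted p = 0.0147). ATF3, a stress-induced transcription factor, was at 3.95 to 4.50 (median 4.36) inside and 2.67 to 3.83 (median 3.24) outside (0.96 ± 0.13, adjusted p = 0.00206). DUSP1, a MAP kinase phosphatase, was higher by 0.78 and kept its call in only 16 of 29 alternatives, and JUN, a subunit of AP-1, was higher by 0.59. Of 27 actin and YAP target genes, 6 were higher and 1 lower. ANKRD1, a target of YAP in this list, was at 0.59 to 1.31 (median 0.76) inside and -1.82 to 0.19 (median -1.08) outside (1.76 ± 0.29, adjusted p = 0.00601), and 2.17 in labeled libraries. MYL9, a myosin light chain, was lower (-1.16 ± 0.30, adjusted p = 0.0303), and kept its call in only 18 of 28 alternatives.

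Of 22 genes of the unfolded protein response, 5 were higher and 2 lower, where the shares over all genes were 7.01% and 3.88%. HERPUD1, which acts in degradation of endoplasmic reticulum proteins, was at 4.54 to 4.96 (median 4.66) in inside controls and 3.59 to 4.13 (median 3.82) in outside controls (0.85 ± 0.07, adjusted p = 0.00109), and XBP1, a transcription factor of this response, was higher by 0.59. SDF2L1 (-0.68), which kept its call in only 14 of 29 alternatives, and the translocon subunit SEC61B (-0.61) were lower. TXNIP, an inhibitor of thioredoxin and a MondoA target, was higher by 0.91. Of 31 extracellular matrix genes 6 were higher, among them SPARC by 0.84, and COL4A5 was lower (-0.28). Of 37 adhesion and ephrin genes 5 were higher, among them the adhesion molecule L1CAM by 1.00, and 1 was lower. Limma called 0 of 24 cholesterol synthesis genes, 0 of 30 proteasome genes, 0 of 25 zinc finger genes of chromosome 19 and 0 of 18 neuronal genes, against 7, 6, 7 and 6 at an unadjusted p under 0.05 and 1, 1, 3 and 1 by limma voom.

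Other coding genes in the stricter group with large positive differences had no shared list. KRTAP19-1 (chromosome 21, hg38 position 30479699 to 30480344, minus strand), annotated as a keratin-associated protein, was at 3.50 to 4.26 (median 3.80) in inside controls and 1.41 to 2.73 (median 2.0) in outside controls. The difference was 1.70 ± 0.18 (adjusted p = 0.00126) and 1.67 in labeled libraries (adjusted p = 0.00405). CRYL1, a crystallin-like dehydrogenase, was higher by 1.32, TMSB4X, thymosin beta 4 that binds actin monomers, by 1.23, ACBD7, an acyl-CoA binding protein, by 1.16, and TTLL1, a tubulin polyglutamylase, by 1.15. Among these, labeled differences were 0.84 for CRYL1, 1.33 for TMSB4X, 0.36 for ACBD7 and 0.96 for TTLL1, and that of ACBD7 was not called.

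Genes lower in inside controls were of other kinds. Since strand is not known to be kept, reads of genes that overlap on opposite strands cannot be told apart, and the annotated partners of these genes are given with them. Among the genes higher inside, ALDH1L2 lies opposite C12orf45, ASNS opposite AC005326.1, VLDLR opposite VLDLR-AS1, SLC7A11 opposite SLC7A11-AS1, RPL23A opposite TLCD1 and AC010761.1, EIF3L opposite ANKRD54, and TTLL1 opposite AL022476.1. DIP2C-AS1, opposite DIP2C, was at -0.14 to 1.30 (median 0.68) in inside controls and 1.94 to 2.78 (median 2.44) in outside controls, a difference of -1.72 ± 0.17 (adjusted p = 0.00118), and -1.45 in labeled libraries (adjusted p = 0.0107). TBC1D22A-AS1, opposite TBC1D22A, had -1.72 ± 0.25 (adjusted p = 0.00311). OMD (-1.30) and ECM2 (-0.96), genes of extracellular proteoglycan and matrix proteins, both lie opposite the centromere gene CENPP. INSYN2A (-0.95) lies opposite DOCK1, PGLYRP1 (-0.96) opposite CCDC61 and ERVFRD-1 (-0.85), the retroviral envelope gene syncytin 2, opposite SMIM13. C10orf113 (-1.43), within NEBL on the same strand, was at 1.11 in labeled libraries and not called there (adjusted p = 0.465). Of the 12 coding genes named by the largest negative differences, HMGN5, a nucleosome-binding protein, had -0.98, AGRP, a melanocortin antagonist opposite AC009061.2, -0.85, and ATP8B1, a phospholipid flippase opposite AC027097.1, AC027097.2 and RNU6-742P, -0.78. In labeled libraries HMGN5 was at -1.09 and called lower, while AGRP (0.26) and ATP8B1 (-0.39) were not called. POLR2J3 (-1.02), opposite SPDYE2, belongs to a family of near-identical copies whose reads can be shared. Pseudogenes among the lower genes were MRPS18AP1 (-1.66), a copy of a mitochondrial ribosomal protein gene opposite ZNF589, and RN7SL329P (-1.60), a copy of the signal recognition particle RNA within NSMCE2.

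SNORD91B, a small nucleolar RNA gene within TSR1, was among the 5 noncoding genes named by the largest negative differences. It had 37, 16, 20 and 16 reads in Lyn11 and 14, 23 and 24 in Lck controls, against 47, 39 and 27 in CD28 and 63, 45 and 32 in PDGFR controls. Its reads overlapped between sides, while its levels did not. The levels were 1.70 to 2.47 log2 FPKM (median 1.94) inside and 3.33 to 4.03 (median 3.88) outside, a difference of -1.70 ± 0.18 (adjusted p = 0.00143). In labeled libraries it was -0.35 and not called (adjusted p = 0.391). Of 13 nuclear-retained long noncoding RNAs, 1 was higher and 3 lower in controls, where the shares over all genes were 7.01% and 3.88%. The median difference was -0.25 in control and 0.09 in labeled libraries, against 0.05 and 0.04 over all genes. NEAT1, the scaffold of paraspeckles, was at 4.43 to 6.43 (median 6.06) inside and 6.41 to 7.62 (median 6.97) outside (-1.24 ± 0.22, adjusted p = 0.00795), and KCNQ1OT1, an imprinted RNA opposite KCNQ1, had -0.71. The line means of NEAT1 were 5.24 in Lyn11, 6.22 in Lck, 6.56 in CD28 and 7.39 in PDGFR. Its sides overlapped, and Lck minus CD28 was -0.34 and not called. FIRRE had -0.25, and TUG1 was higher by 0.47, with calls kept in only 12 and 18 of 29 alternatives.

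Of 49 replication-dependent histone genes, 1 was higher and 6 lower in controls, with a median of -0.08, where 3.88% of all genes were lower. Under the 28 alternatives the lower count was 2 to 17, with 2 without Lck-Control 1 or Lck-Control 3, 13 without Lyn11-Control 1 and 17 under quantile normalization. In labeled libraries 12 were lower, where 2.42% of all genes were, with a median of -0.41. H4C8 was at 4.94 to 5.96 (median 5.68) in inside controls and 6.17 to 6.67 (median 6.44) in outside controls (-0.83 ± 0.14, adjusted p = 0.00589). H3C1 had -0.99 and H3C13 -0.84, the second keeping its call in only 16 of 29 alternatives. Of 15 mitochondrially encoded genes, 0 were called higher and 4 lower, where 3.88% of all genes were lower. Yet 10 of the 15 differences were positive, with a median of 0.09, against 0.05 over all genes. In labeled libraries the median was 0.51, with 0 called higher and 2 lower. The 4 called lower in controls were the ribosomal RNAs MT-RNR1 (-3.91 ± 0.53, adjusted p = 0.00247) and MT-RNR2 (-2.67), and MT-ND6 (-0.96) and MT-ND5 (-0.68), neighbouring genes on opposite strands. The line means of MT-ND6 were 8.03 in Lyn11, 9.17 in Lck, 9.49 in CD28 and 9.62 in PDGFR. Its sides overlapped, and Lyn11 minus Lck (-1.14) was larger than the difference between sides. MT-RNR1 had 9, 2, 1 and 1 reads in Lyn11 and 44, 8 and 6 in Lck controls, against 25, 32 and 104 in CD28 and 119, 90 and 71 in PDGFR controls, which is a trace in every library.

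Shares of reads by RNA class were compared over the 13 libraries with the exact permutation test (two-sided, 0.000583 the smallest p that the relabelings allow). It takes libraries, and not lines, as exchangeable. Relabeling the 4 lines instead could give no permutation p below 0.333. Over libraries, 10 of 14 classes passed after adjustment. Small nuclear RNA genes held 0.0191% ± 0.00291 in inside controls and 0.0297% ± 0.00443 in outside controls, and sense intronic genes 0.136% ± 0.0207 and 0.191% ± 0.0287 (SD, n = 7 and 6; adjusted p = 0.00272 each, exact permutation). Neither class overlapped between sides. Antisense genes held 0.842% inside and 1.07% outside (adjusted p = 0.00582), and microRNA genes 0.0210% and 0.0317% (adjusted p = 0.00328, exact permutation). Most classes that passed thus held smaller shares inside, and ribosomal protein pseudogenes (0.250% inside and 0.206% outside, adjusted p = 0.00544) joined ribosomal protein mRNAs in the other direction. LincRNA genes (2.73% and 2.65%, adjusted p = 0.784) and mitochondrially encoded mRNAs (1.49% and 1.16%, adjusted p = 0.105) did not pass.

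**Figure D4:**
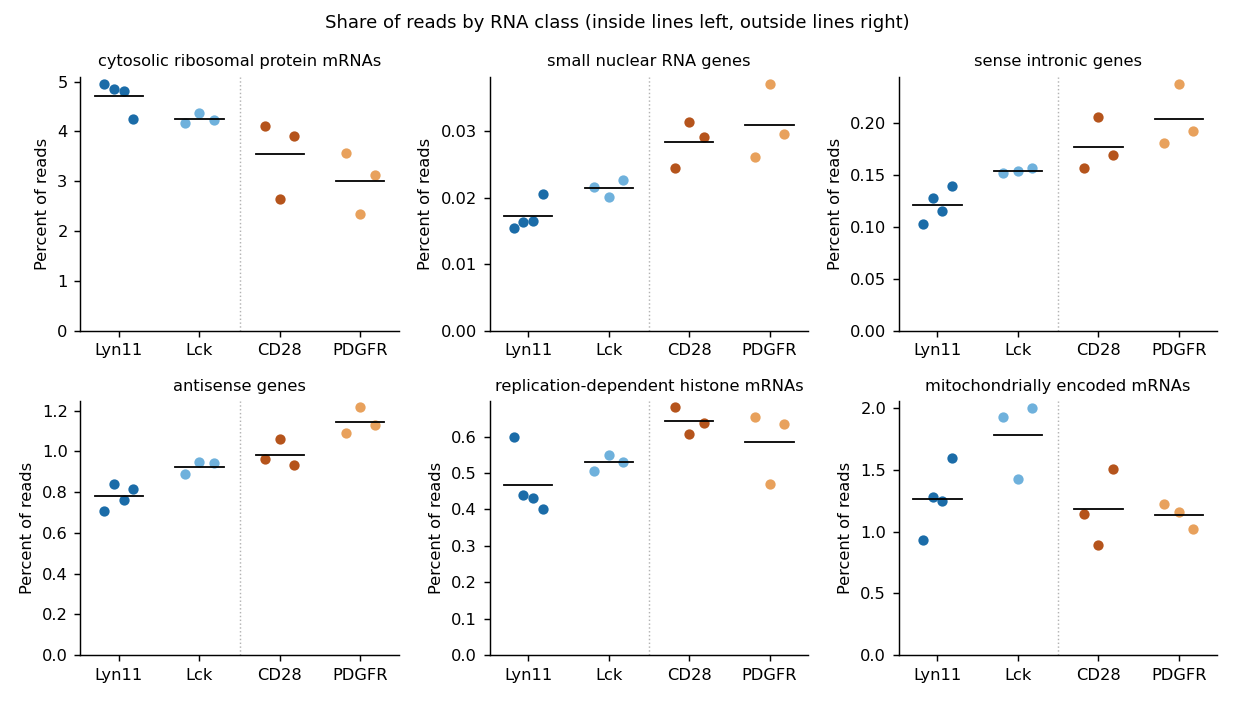
Percent of recovered reads in 6 RNA classes for each control library, by line (Lyn11 and Lck left, CD28 and PDGFR right), with bars at the line means. Ribosomal protein mRNAs lie at 4.17 to 4.96% inside and 2.34 to 4.11% outside, while sense intronic genes lie at 0.103 to 0.157% inside and 0.157 to 0.238% outside.

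Gene by gene the classes split in the same way. Of 12509 protein-coding genes tested, 10.2% were higher and 2.28% lower, whereas of 2238 antisense genes 1.47% were higher and 7.02% lower, and of 522 sense intronic genes 0.575% were higher and 9.2% lower. Under scaling to total reads the split among protein-coding genes was 644 higher and 755 lower, against 1282 and 285, while antisense genes had 22 higher and 217 lower and sense intronic genes 2 and 58. Thinning every library to 11.34 M reads gave 28 higher and 144 lower antisense genes, against 33 and 157, and 3 higher and 44 lower sense intronic genes, against 3 and 48. Thinning sets equal read totals only, and the part of depth in these differences was not tested.

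Calls among coding genes varied with GC content. In 5 equal bins from low to high GC (median 38.5, 43.2, 48.6, 55.3 and 62.0%), 9.18, 19.5, 16.6, 5.12 and 0.8% of genes were higher, and 1.12, 1.88, 2.4, 2.36 and 3.64% were lower. The median difference was 0.12, 0.16, 0.12, 0.02 and -0.10 in controls and 0.05, 0.07, 0.03, -0.05 and -0.16 in labeled libraries. The trend differed by line, as the medians for Lyn11 against CD28 were 0.08, 0.12, 0.12, 0.12 and 0.08, and those for Lck against PDGFR were 0.17, 0.21, 0.13, -0.06 and -0.29. Within the inside lines, Lyn11 minus Lck ran 0.00, 0.07, 0.13, 0.18 and 0.21. After each library was centred within 20 bins of GC content, 28 of 30 stress response genes were called higher and 0 lower, and 4957 genes in all were called, 3733 higher and 1224 lower.

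**Figure D5:**
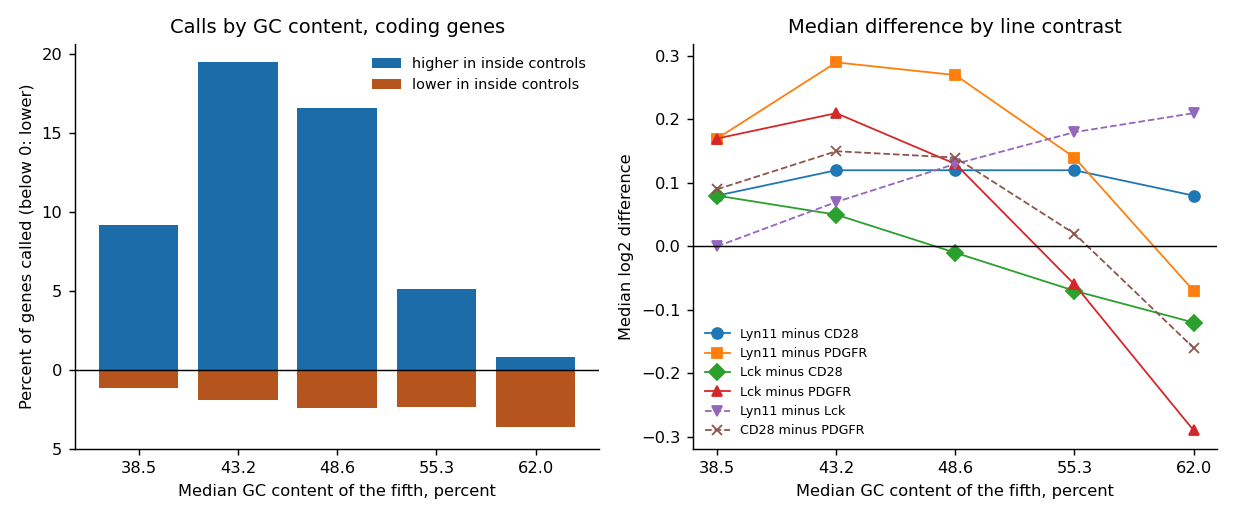
Left, percent of coding genes called higher and lower in inside against outside controls by bin of GC content (5 equal bins). Right, the median difference in each bin for each pair of lines. Higher calls peak at 19.5% in the second bin and are 0.8% in the last; the medians for Lck against PDGFR run from 0.21 in the second bin to -0.29 in the last, and those for Lyn11 against CD28 stay at 0.08 to 0.12.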

How the data were processed

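The deposited values are log2 FPKM for 25745 genes in 26 libraries, made by the authors with a prior count in each value, which bounds low levels. HISAT2 2.1.0 (aligner), the hg38 build and edgeR (no version) are named in the submitters' processing notes. The read numbers behind the deposited values were recovered as whole reads, to within 0.05 read, for all 25745 genes (gene lengths from GENCODE 29 for 24075 and by search for 1670). Recovered depth was 11.34 to 34.83 M (1e6) reads in the 13 controls and sets how precisely low genes are measured.

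Groups came from sample titles, and the design text calls the samples biological replicates. Libraries of 4 lines entered 1 limma 3.58.1 fit in R 4.3.3 with an intensity trend, 9 residual degrees of freedom (11.65 after moderation) and 21235 genes. The log2 values were tested as deposited, with no further pseudocount, so the difference of a thinly read gene is understated. Labeled libraries were fitted likewise, and the change between labeled and control differences on all 26 libraries. Class shares used exact permutation over all 1716 relabelings in Python 3.11.15 with numpy 2.4.6. Tests were two-sided. The fit was tested on simulated data. Replicate numbers did not pair libraries: deviations of same-numbered libraries of different lines correlated at -0.216 to 0.221, those of other numbers at -0.303 to 0.337.

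The libraries, the 36 gene lists and the rules were chosen with earlier results of these data known. Genes named were the 12 coding and 5 other genes with the largest differences each way, with a mean log2 of at least 1, no overlap between sides and a difference larger than both within-side differences, and up to 3 members of each list each way. All 30 stress response genes, and further members of the lists, were named after their values were seen. Alternatives covered scaling, filter, spread model, depth, GC content, unit of replication and each library left out.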

Additional observations from a re-analysis of the deposited data

Results flagged for a closer look

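In 100 groups of values looked at (library measures, class shares and named genes on each side), 8 had 1 library far from the others of its side by Dixon's ratio, which chance gives in about 1 in 20 groups. Lyn11-Control-1 had 239 genes at 0 reads, more than any other inside control, and was lowest for ALDH1L2 at 3.44 log2 FPKM. CD28-Control-1 was the lowest outside control for ALDH1L2 at 2.59. Lck-Control-1 had the highest inside share of mitochondrially encoded rRNAs, 0.000535% of reads. PDGFR-Control-2 had the lowest outside share of replication-dependent histone mRNAs, 0.470%, and the lowest TMSB4X value, -0.0387 log2 FPKM. Lyn11-Control-4 was highest of the inside controls for RPL23A at 6.24 and lowest for H4C8 at 4.94.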

How the results depend on the processing

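Line, side and depth coincide, so alternatives bear on the spread between libraries and not on the lines. The 2312 calls became 0 with the 4 line means as samples (3133 at an unadjusted p under 0.05 by limma), 1450 with the line as a random block (926 higher, 524 lower), 2992 under median centring (2297 higher, 695 lower), 2270 under scaling to total reads (782 higher, 1488 lower), and 4957 with GC bins centred (3733 higher, 1224 lower), an alternative chosen, like total reads and leaving out CD28-Control-2 and PDGFR-Control-2, after seeing the data. Leaving out 1 library gave 1022 to 2957. The replicate block, a fit for pairing by number, gave 1688 calls. The median difference of all genes was 0.05, and -0.05 under total reads and 0.12 under median centring and GC centring. The 841 genes of the stricter group became 1720 with GC bins centred, and 615 to 1357 with 1 library left out.

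Between lines, the counts with 1 library left out were 14 to 425 for Lyn11 against CD28, 1119 to 2675 for Lyn11 against PDGFR, 0 to 15 for Lck against CD28, 8 to 609 for Lck against PDGFR, 0 to 0 for Lyn11 against Lck and 23 to 235 for CD28 against PDGFR. For Lyn11 against CD28 the replicate block gave 24, median centring 480, a filter above 1 in all libraries 421, no intensity trend 148, library weights 98 and both outside libraries left out 70. Library weights gave 741 for Lyn11 against PDGFR. For Lck against CD28 the block gave 6, quantile normalization 68, the strict filter 63, no trend 13, weights 120 and both libraries left out 9. For Lck against PDGFR the block gave 204, median centring 762, quantile 1042, no trend 195 and weights 185. For CD28 against PDGFR the block gave 7, quantile 16, the strict filter 0, no filter 59, no trend 55, weights 5 and both left out 100. The labeled count of 808 was 213 under the block and 176 to 1118 with 1 library left out.

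Class shares (inside minus outside, percentage points) stayed on their side of the threshold except histones (-0.149 to -0.105; without CD28-Control 1, -0.107, adjusted p = 0.0566), misc_RNA (-0.32 to -0.199; without Lck-Control 2 it passed, adjusted p = 0.0386, exact permutation), and mitochondrial mRNAs (0.245 to 0.423; without Lyn11-Control 1 they passed, adjusted p = 0.0275), and lincRNAs ran from -0.0409 to 0.253. LYN turned to -0.02 under total reads. Of 34 genes named by size, 27 kept their call in every alternative except the line means, where none was called. C10orf113, PGLYRP1, MIR4525 and RN7SL329P lost it with the spread from all 26 libraries. Causes were not tested.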
